A study of Mus musculus with 71 samples.

Results

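RNA-seq of the ventral tegmental area (VTA) was compared with that of the prefrontal cortex (PFC) in mice that had self-administered saline and were killed after 28 days of abstinence. The comparison took the 10 saline libraries of those regions, 5 from the VTA and 5 from the PFC, of 71 libraries in the series. They were chosen by region, treatment and time alone, except that 1 of the 6 saline PFC libraries, PFC library 4, was left out because genes of striatal neurons were high in it. The study asked how abstinence from cocaine changes gene expression in the nucleus accumbens (NAc), VTA and PFC at 1 and 28 days. Its mice were wild-type adult C57BL/6 (C57BL/6J in the study's methods) of both sexes, 8 weeks old, trained to work for food, fitted with a jugular catheter and then given daily sessions of saline or cocaine. Each region was taken with a micro-punch from a slice 1 mm thick, so a library held all cells of the punch, and a lower level could mean fewer cells of a type or less RNA in each cell, which cannot be told apart. The saline mice shared the food training, the surgery and the sessions, so none was naive. The column names give region and treatment but not the mouse, so libraries from the same brain could not be matched, and p-values measure the spread between these libraries.

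The VTA libraries held 28356375 to 45056082 reads on genes and the PFC libraries 31827950 to 48936621. Reads from the Y-linked gene Ddx3y were present in all 10 libraries and Xist, which females express, had 22 reads in all VTA libraries together and 7 in all PFC libraries. By these genes none of the 10 libraries looked female, although the study's methods name both sexes. Of 4 tested sex-linked genes 0 were called at 2-fold. Levels are given as CPM, counts scaled by TMM to the size of the library, and each series of 5 values follows the library numbers, 1 to 5 for the VTA and 1, 2, 3, 5 and 6 for the PFC. With VTA library 1 kept and PFC library 4 left out, the VTA libraries were more variable than those of the PFC: the median coefficient of variation over genes was 18.4% in the VTA and 10.0% in the PFC, and it was higher in the VTA for 13343 of 16688 genes (80.0%). VTA library 1 stood apart from the other VTA libraries by high hypothalamic peptide genes and is described with the VTA libraries further on. It was also low for Cbl (9.91 CPM, others 37.4 to 46.1), Reln (25.0, others 65.1 to 80.2) and Aqp4 (103, others 338 to 475). The cause of these low values was not tested.

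The VTA lies in the floor of the midbrain and holds the dopamine neurons that project to the NAc and the PFC, beside GABA and glutamate neurons. Dopamine neurons make their transmitter from tyrosine through tyrosine hydroxylase and aromatic amino acid decarboxylase, load it into vesicles through the vesicular monoamine transporter and take it back up through the dopamine transporter. The PFC is layered cortex, in which most neurons are glutamatergic projection neurons formed under forebrain transcription factors, with a smaller number of GABA interneurons. Addictive drugs act on the dopamine that VTA neurons release in the NAc and the PFC, so the VTA is the source and the PFC a target of the same pathway.

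The region around a start of transcription is shown for 4 genes of dopamine synthesis and transport, all of them higher in the VTA. It is also shown for Sst, a neuropeptide gene that was higher in the PFC. The sequences are those of RefSeq on GRCm38.p6, read on the strand of the gene from 250 bases before to 50 bases after the start. Capitals mark a match to TGACGTCA, the cyclic AMP response element (CRE) that CREB binds, or to AAAGGTCA, the NBRE that orphan receptors of the Nr4a family bind as single molecules, on either strand.
Th, chr7:142899946-142900245, minus strand: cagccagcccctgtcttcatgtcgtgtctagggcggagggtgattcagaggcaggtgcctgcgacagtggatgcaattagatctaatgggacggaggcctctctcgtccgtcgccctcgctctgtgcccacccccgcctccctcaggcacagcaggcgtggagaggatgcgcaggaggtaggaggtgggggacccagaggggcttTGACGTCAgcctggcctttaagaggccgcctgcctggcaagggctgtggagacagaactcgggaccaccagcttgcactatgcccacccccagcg
Ddc, chr11:11898095-11898394, minus strand: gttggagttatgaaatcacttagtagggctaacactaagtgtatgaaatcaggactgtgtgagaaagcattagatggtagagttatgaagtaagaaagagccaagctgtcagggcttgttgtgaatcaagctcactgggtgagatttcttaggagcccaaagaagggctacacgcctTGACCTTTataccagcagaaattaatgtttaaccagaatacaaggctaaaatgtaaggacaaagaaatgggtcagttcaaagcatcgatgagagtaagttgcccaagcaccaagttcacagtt
Slc18a2, chr19:59260628-59260927, plus strand: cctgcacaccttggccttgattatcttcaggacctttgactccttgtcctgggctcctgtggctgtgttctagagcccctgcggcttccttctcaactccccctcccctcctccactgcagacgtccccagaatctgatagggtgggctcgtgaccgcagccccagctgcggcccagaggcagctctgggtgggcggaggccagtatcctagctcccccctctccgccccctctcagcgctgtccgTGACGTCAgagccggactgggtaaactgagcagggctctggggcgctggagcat
Slc6a3, chr13:73536497-73536796, plus strand: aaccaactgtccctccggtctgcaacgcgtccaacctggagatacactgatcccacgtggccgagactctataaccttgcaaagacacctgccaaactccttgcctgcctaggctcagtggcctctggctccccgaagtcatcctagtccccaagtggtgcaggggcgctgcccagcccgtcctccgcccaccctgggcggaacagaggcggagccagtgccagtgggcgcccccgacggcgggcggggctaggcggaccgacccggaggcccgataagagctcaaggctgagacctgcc
Sst, chr16:23890795-23891094, minus strand: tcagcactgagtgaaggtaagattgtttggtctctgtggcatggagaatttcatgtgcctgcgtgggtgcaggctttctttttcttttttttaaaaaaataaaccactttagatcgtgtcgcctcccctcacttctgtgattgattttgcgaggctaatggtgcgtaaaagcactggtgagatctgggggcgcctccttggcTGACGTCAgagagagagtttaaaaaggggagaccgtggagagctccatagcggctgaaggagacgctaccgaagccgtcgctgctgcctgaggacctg
The CRE of Th began at base -45 from the start, that of Sst at -48 and that of Slc18a2 at -4. The capitals of Ddc, at -73, are the NBRE on the other strand, and the window of Slc6a3 held neither motif. For Ddc alone, only a window that held the NBRE was printed, so its motif was fixed by that choice. Of 32851 promoters of the same length, 588 (1.79%) held the CRE and 495 (1.51%) the NBRE. Counts for the gene lists are of genes with the motif in any of their promoters, a unit unlike that of these shares over single promoters. Among the 8 genes of dopamine synthesis, transport and breakdown that had a promoter in the table, 2 held the CRE (Th and Slc18a2) and 1 the NBRE (Ddc). In other lists the CRE was in 3 of 16 neuropeptide genes (Cartpt, Sst and Ucn), 2 of 15 activity-induced genes (Btg2 and Dusp1) and 0 of 17 cortical projection neuron genes. The NBRE was in 0 of each of these and in 1 of 11 dopamine neuron identity genes (Sox6). The CRE thus occurred beside genes higher in either region.

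In all, 16688 genes passed the filter on low counts. Of them 8871 (53.2%) differed between the regions by edgeR's quasi-likelihood test at a Benjamini-Hochberg adjusted p under 0.05, 4692 (28.1%) higher in the VTA and 4179 (25.0%) higher in the PFC. A difference of 2-fold or more as well was found for 3324 genes (19.9%), of which 1923 (11.5%) were higher in the VTA and 1401 (8.40%) in the PFC. Below, "called higher" means an adjusted p under 0.05 together with a 2-fold difference, so that 11.5% and 8.40% are the shares against which the counts of each gene list can be read, and "passed the test" means an adjusted p under 0.05 alone. All log2 differences are fitted and given as VTA over PFC, with negative values for genes higher in the PFC. The median log2 difference over all genes, VTA over PFC, was 0.05. Scaling by total counts in place of TMM moved that median to 0.17 and the share of called genes that were higher in the VTA from 52.9% to 65.7%. Without VTA library 1, 10195 genes differed and 3623 by 2-fold or more.

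**Figure D1:**
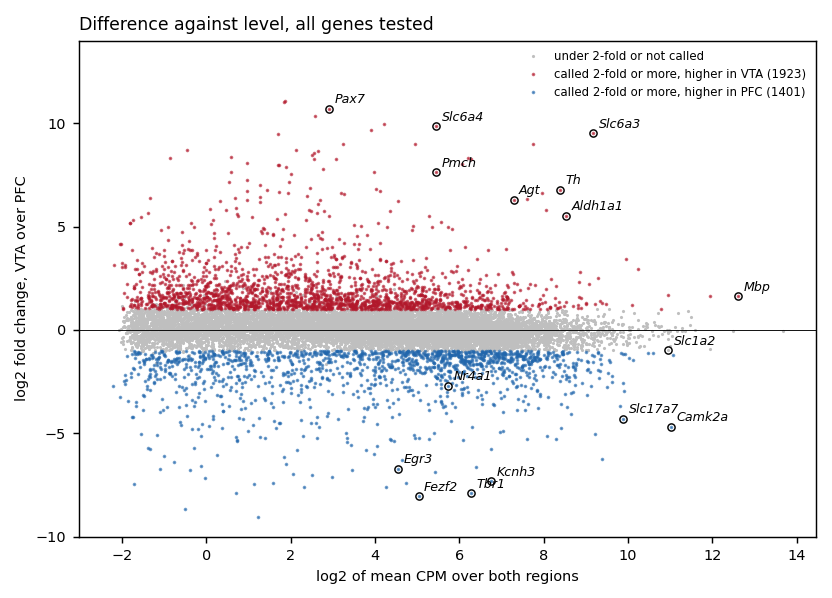
Log2 fold change of each of the 16688 genes, VTA over PFC, against the log2 of its mean CPM over both regions. Red points are the 1923 genes called at 2-fold or more and higher in the VTA, blue points the 1401 called higher in the PFC, grey points all others, and circles mark genes named in the text. Slc6a3 and Slc6a4 lie near the top at 9.51 and 9.87, and Tbr1 and Fezf2 near the bottom at -7.89 and -8.06.

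The genes of the dopamine transmitter gave some of the greatest differences at high levels. The dopamine transporter gene Slc6a3 (chr13:73674195-73716120, plus strand, in mm9) had 1063, 2404, 1299, 286 and 699 CPM in the VTA libraries and 1.0, 1.17, 2.39, 1.48 and 1.92 in those of the PFC. All VTA libraries lay above all PFC libraries, as the groups did not overlap for 6601 of 16688 genes (39.6%), and within the VTA library 2 was highest and library 4 lowest. The log2 difference was 9.51 ± 0.64 (SE), a 729-fold higher level in the VTA (edgeR adjusted p = 3.01e-07). Th, tyrosine hydroxylase, had 743, 1266, 754, 265 and 275 CPM in the VTA against 6.63, 6.4, 6.39, 5.39 and 5.08 in the PFC, a log2 difference of 6.79 ± 0.48 (SE) (edgeR adjusted p = 4.36e-07). The VTA libraries kept the same order at their ends for both genes, library 2 highest and library 4 lowest. Slc18a2, the vesicular monoamine transporter, had 228 to 772 CPM in the VTA and 0.51 to 1.31 in the PFC, and Ddc, the decarboxylase, 249.8 to 850.1 and 6.76 to 11.6. Their log2 differences were 9.00 and 5.81. Gch1, which makes the first step toward the cofactor of tyrosine hydroxylase, differed by 4.98.

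The remaining genes of the list differed by less. Qdpr, which regenerates the cofactor, was higher in the VTA by a log2 difference of 1.16, and Maoa, which oxidises monoamines, by 1.07. Maob at 0.82 and Pts, a later enzyme of cofactor synthesis, at 0.51 differed by under 2-fold. Of the 10 genes of dopamine synthesis, transport and breakdown, 7 were called higher in the VTA and 0 in the PFC, with a median log2 difference of 3.07 against 0.05 over all genes. Per length of gene, the mean level in the VTA was 331 ± 230.1 RPKM (reads per kilobase of gene, scaled to the size of the library) for Slc6a3, 264 ± 122 for Ddc and 113 ± 58.7 for Slc18a2 (SD, n = 5), and the ranges of Slc6a3 and Ddc overlapped.

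**Figure D2:**
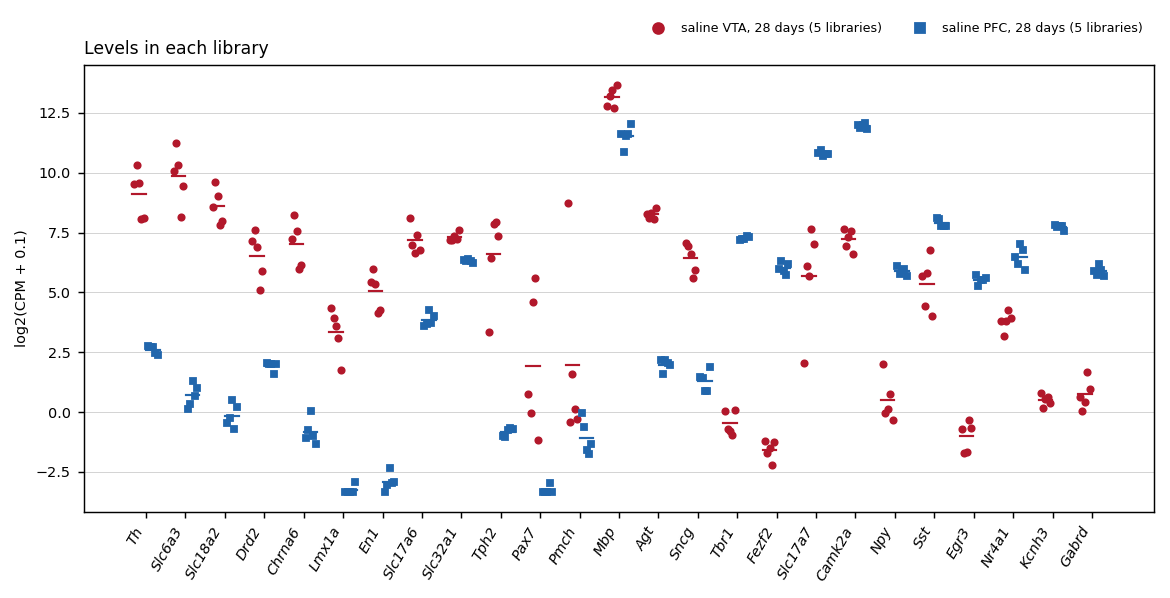
CPM on a log2 scale, log2(CPM + 0.1), of 25 genes in each of the 5 saline VTA libraries (red circles) and 5 saline PFC libraries (blue squares) at 28 days, with a line at the mean of each group. Genes of dopamine and serotonin neurons stand at the left, genes of glia and axons in the middle and genes of cortex at the right; Pmch is carried by a single VTA library at 431 CPM.

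The transcription factors that specify and keep dopamine neurons separated the regions further. Of 13 identity genes 12 were called higher in the VTA and 0 in the PFC, with a median log2 difference of 6.62, which was the same with genes at 0 set to their lower bound. Foxa2 (chr2:147868613-147872705, minus strand), a factor of the midbrain floor plate, had 10.7, 11.7, 7.23, 3.5 and 2.31 CPM in the VTA and 0 reads in all 5 PFC libraries. Against a floor of 3 reads over the group it was at least 421-fold higher in the VTA. Lmx1a, which acts with it in the floor plate, had 20.4, 15.3, 11.9, 8.53 and 3.24 CPM in the VTA and 1 read in all PFC libraries together, a ratio of 2037 with a 95% counting interval of 365.2 to 80500. En1, a homeobox gene that dopamine neurons need to survive, had 17.6 to 63.7 CPM in the VTA and at most 0.0983 in the PFC.

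Several further identity genes were high in every VTA library. Foxa1 had 8.21 to 31.2 CPM, Lmx1b 16.5 to 43 and Pitx3, a factor of mature dopamine neurons, 2.2 to 12.5, against at most 0.328 for each in the PFC. Aldh1a1, an aldehyde dehydrogenase of a subset of dopamine neurons, differed by a log2 of 5.53 and Ret, the receptor through which GDNF acts, by 6.62. Nr4a2 (Nurr1), the member of the Nr4a family that dopamine neurons depend on, had 50.8, 87.8, 58.8, 31.5 and 22 CPM in the VTA against 8.75, 11.1, 15.1, 10.5 and 15 in the PFC. It differed by only 2.05 ± 0.33 (SE), less than any of the 11 other identity genes called, with its PFC level well above those of the floor plate factors. Sox6 was the exception, with 13.6, 33.5, 28.9, 23.2 and 28.6 CPM in the VTA against 21.4, 24.3, 22.8, 26.6 and 24.6 in the PFC, overlapping groups and a log2 difference of 0.10 ± 0.19 (SE) (edgeR adjusted p = 0.697). Sox6 is known in cortical interneurons as well as in dopamine neurons.

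The dopamine receptors divided by region. Drd2, which inhibits adenylyl cyclase and serves as the autoreceptor of dopamine neurons, had 142, 195, 120.4, 34.4 and 58.8 CPM in the VTA against 4.06, 3.96, 3.87, 2.92 and 3.94 in the PFC, without overlap and with a log2 difference of 4.88 ± 0.44 (SE) (edgeR adjusted p = 3.26e-06). Drd1, listed as Drd1a, which stimulates adenylyl cyclase, ran the other way with 2.28, 1.9, 2.39, 2.27 and 2.79 CPM in the VTA against 19.1, 22.9, 19.3, 18.8 and 19.4 in the PFC. The log2 difference of Drd1a was -3.09 ± 0.12 (SE), an 8.53-fold higher level in the PFC (edgeR adjusted p = 5.15e-09). Drd5, the other stimulating receptor, was also higher in the PFC at -1.46. Drd4 at -2.71 and Drd3 at 3.13 were called in opposite directions from levels below 1 CPM in every library. Of 5 receptors, 2 were called higher in the VTA and 3 in the PFC, with a median of -1.46. With PFC library 4 included, Drd2 differed by 2.18 (edgeR adjusted p = 0.0902) and Drd3 by 0.38 (adjusted p = 0.759), so both calls were lost. Drd1a and Drd2 were among the striatal genes for which that library was left out, so their tests are given as a description. The lack of overlap of Drd2 depended on that choice, as it had 122.0 CPM in PFC library 4.

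Genes listed as factors of the midbrain and hindbrain were read in the VTA libraries at higher levels than in the PFC. Of 18 such genes 17 passed the filter, and all 17 were called higher in the VTA, with a median log2 difference of 6.21 that was the same with genes at 0 set to their bound. Pou4f1, the member not tested, had 272 reads in the VTA and 7 in the PFC. Barhl1, a homeobox gene, had 7.91, 4.81, 4.85, 11.1 and 7.73 CPM in the VTA and 0 reads in the PFC, a level at least 433-fold higher. The LIM homeobox genes Lhx1 and Lhx5 had 7.27 to 15.7 and 7.82 to 18.3 CPM in the VTA and at most 0.0655 in any PFC library, and Irx2, an Iroquois factor, had 7.96 to 56 and at most 0.0625. Gata3, Tal1 and Gata2, which specify midbrain GABA neurons, differed by 8.28, 3.18 and 1.58, and Gata2 and Tal1 were read in every PFC library, at 4.85 to 6.76 and 1.18 to 2.23 CPM. Pax7, a factor of the dorsal midbrain, had 1.59, 0.865, 24.1, 48 and 0.345 CPM in the VTA libraries, high in libraries 3 and 4 only, and 1 read in the PFC, a ratio of 3111 with a 95% counting interval of 558.0 to 122900. Its fitted log2 difference was 10.71, and 9.53 without VTA library 4. Six3 had 3.77, 5.5, 1.95, 0.93 and 22 CPM in the VTA, with library 5 far above the others, and a log2 difference of 4.87 that fell to 3.66 without that library and to 0.74 with PFC library 4 included (edgeR adjusted p = 0.651). Six3 was not particular to the midbrain or hindbrain: its mean in the saline NAc, scaled over all libraries of the 3 regions, was 50.15 CPM.

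Serotonin neurons lie in the raphe, behind and above the VTA, and their markers were present in the VTA libraries. Slc6a4, the serotonin transporter, had 4.97, 57.5, 137, 135 and 103 CPM in the VTA against 0.125, 0.0636, 0.164, 0 and 0.12 in the PFC, a log2 difference of 9.87 ± 1.02 (SE) (edgeR adjusted p = 9.20e-06). Tph2, the rate-limiting enzyme of serotonin synthesis, had 10.1, 86, 233, 246 and 163 CPM in the VTA and 0.382 to 0.539 in the PFC. Both genes were lowest in VTA library 1 and far higher in libraries 3, 4 and 5. Fev, the factor that specifies these neurons, had 0.749 to 6.42 CPM in the VTA and 2 reads in the PFC, a ratio of 380.1 with a 95% counting interval of 104.9 to 3144. Of 6 serotonin neuron markers 5 were called higher in the VTA and 0 in the PFC, with a median of 8.18. Besides Slc6a4, Tph2 and Fev, those called were Gata3 and Lmx1b. They are not particular to serotonin neurons: Gata3 is also listed with the midbrain and hindbrain factors and Lmx1b (7.65) with the dopamine neuron identity genes. The sixth marker, the autoreceptor Htr1a, had 12.6 to 50.4 CPM in the VTA and 16.5 to 22.4 in the PFC (log2 difference 0.51, edgeR adjusted p = 0.273). The part of raphe tissue in these values was not tested.

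Nicotinic acetylcholine receptor subunits were the ion channel group with the highest median. Of 9 subunits 6 were called higher in the VTA and 0 in the PFC, with a median log2 difference of 4.38, which was the value of Chrna2. Chrna6, whose subunit is known from catecholamine neurons and their terminals, had 151, 300.3, 188, 63.5 and 70.6 CPM in the VTA against 0.375, 0.487, 0.917, 0.397 and 0.30 in the PFC (log2 difference 8.29 ± 0.56 (SE), edgeR adjusted p = 3.26e-07). Chrnb3, often its partner, had 30.9 to 156 CPM in the VTA and 1.93 to 3.21 in the PFC. Chrna6 and Chrnb3 were highest in VTA library 2 and lowest in library 4, as Th and Slc6a3 were. The subunits Chrna3 and Chrnb4, which are abundant in the nearby interpeduncular nucleus and in the habenula, differed by 6.08 and 5.79. Smaller differences were those of Chrna4 at 1.44, Chrna5 at 0.98, Chrnb2 at 0.53 and Chrna7 at 0.37 (edgeR adjusted p = 0.238). Chrna2 had 0.27, 0.277, 25.6, 37.6 and 0.319 CPM in the VTA, so its log2 difference of 4.38 rested on libraries 3 and 4, and was 3.42 without library 4. Cholinergic and interpeduncular markers, which share 5 tested subunits with this group, were called higher in the VTA for 6 of 8 tested members of 12 listed, with a median of 3.41. Ache, acetylcholinesterase, differed by 1.83, while Chat, which makes acetylcholine, stayed below 1.3 CPM in all 10 libraries and its difference of 1.42 became -1.40 with PFC library 4 included (edgeR adjusted p = 0.276).

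The PFC libraries were marked by the factors of cortical projection neurons. Fezf2 (chr14:13174406-13178379, minus strand), which specifies neurons of the deep layers that project below the cortex, had 0.329, 0.208, 0.257, 0.114 and 0.319 CPM in the VTA against 63.2, 78.8, 59.9, 52.8 and 71.7 in the PFC. Its log2 difference was -8.06 ± 0.22 (SE), a 266-fold higher level in the PFC (edgeR adjusted p = 4.42e-10). Tbr1, a T-box factor of early-born cortical neurons, had 0.408 to 0.957 CPM in the VTA and 147 to 164 in the PFC. It differed by -7.89 ± 0.21 (SE). The groups did not overlap for either factor.

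Genes that mark the dorsal forebrain gave differences of the same order. Emx1 differed by -7.13 and Lhx2 by -6.30. Mef2c, an activity-regulated factor of excitatory neurons, had 11.2 to 20.4 CPM in the VTA and 535 to 708 in the PFC (log2 difference -5.28), and Bcl11b (Ctip2) differed by -3.17. Camk2a, the alpha subunit of calcium/calmodulin kinase II, was among the most abundant genes of the PFC at 3604 to 4293 CPM and had 98.3 to 202 in the VTA (log2 difference -4.69 ± 0.21 (SE)). Nrgn, neurogranin, which binds calmodulin in dendrites, differed by -5.01, and its VTA level in library 1 (72.8 CPM) stood above the other 4 libraries at 18.9 to 33.9. Of 22 projection neuron genes 16 were called higher in the PFC and 1 higher in the VTA, with a median of -3.33. The 1 was Nr4a2, which the list holds as a marker of deep cortical layers.

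Some genes used to tell the layers of the cortex apart gave small differences. Rorb, a layer 4 factor, had 10.2 to 13.8 CPM in the VTA and 12.3 to 17.2 in the PFC (log2 difference -0.29, edgeR adjusted p = 0.0637). Cux1 at 0.45 and Cux2 at -0.85, factors of the upper layers, differed by under 2-fold and in opposite directions. Ctgf, a gene of the deepest layer and of blood vessels, had 4.22, 7.72, 17.6, 94.6 and 27.8 CPM in the VTA and 51.1 to 76.3 in the PFC. Ctgf differed by -0.96 (edgeR adjusted p = 0.232) and by -2.05 without VTA library 4, and was then called.

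Beyond the lists, the greatest differences among well-read genes with no overlap included genes of less known function. In the PFC these were the long noncoding RNA Gm11549 (chr3:36413979-36420735) at -7.61, Igfn1 at -6.78 and Crym, which binds thyroid hormone, at -6.65. Crym had 1.5 to 1.9 CPM in the VTA and 123 to 218 in the PFC. In the VTA the noncoding RNA C130021I20Rik (chr2:33496713-33501869) had 77.9, 85.2, 74.8, 43 and 28.5 CPM, against 0.0424 to 0.219 in the PFC, a log2 difference of 8.98. Among the most abundant genes called higher in the PFC were Camk2a, Syt1 at -1.10 (the calcium sensor of transmitter release), Clstn1 at -1.12 and Arf3 at -1.43. Among those called higher in the VTA were the myelin genes Mbp and Mobp and Ptgds, a prostaglandin synthase of meninges and oligodendrocytes, at 2.96.

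RNA levels of the vesicular transporters differed between the regions. Slc17a7, the glutamate transporter of cortex, had 3.98, 68.4, 52, 202 and 130.3 CPM in the VTA against 1818, 1981, 1677, 1779 and 1758 in the PFC (log2 difference -4.30 ± 0.72 (SE), edgeR adjusted p = 3.87e-04). The VTA values ran from near 0 in library 1 to 202 CPM in library 4. Slc17a6, the glutamate transporter of midbrain and thalamus, had 279, 126, 100.2, 169 and 109 CPM in the VTA against 11.9, 12.7, 19.3, 13.2 and 15.9 in the PFC, a log2 difference of 3.42 ± 0.29 (SE). Per length, the VTA means were 113 ± 58.7 RPKM for Slc18a2, 57.3 ± 7.72 for the GABA and glycine transporter Slc32a1, 36.2 ± 16.9 for Slc17a6, 31 ± 26 for Slc17a7 and 6.19 ± 7.09 for Slc17a8 (SD, n = 5). The ranges of neighbours in that order overlapped for every pair. In the PFC the means were 611 ± 38 RPKM for Slc17a7, 28.4 ± 1.28 for Slc32a1, 3.37 ± 0.702 for Slc17a6, 0.995 ± 0.0911 for Slc17a8 and 0.222 ± 0.0859 for Slc18a2, and no neighbours overlapped. Of 5 transporters tested 4 were called higher in the VTA and 1, Slc17a7, in the PFC, with a median of 2.64, which was the value of Slc17a8. Slc17a8, the third glutamate transporter, had 1.35, 6.3, 52.3, 70.7 and 7.66 CPM in the VTA and 3.81 to 4.75 in the PFC, so its difference of 2.64 rested on libraries 3 and 4 and was 1.92 without library 4 (edgeR adjusted p = 0.0532).

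Genes of GABA synthesis and uptake were read in both regions, with differences that varied by gene. Slc32a1 had 146, 144, 165, 151 and 196 CPM in the VTA against 82.1, 78.3, 83.2, 79.5 and 74 in the PFC (log2 difference 1.02 ± 0.09 (SE)), and Gad2, which makes GABA at terminals, differed by 0.89. Gad1, the other enzyme, had 271, 389.9, 411, 294 and 639 CPM in the VTA and 311 to 388 in the PFC and did not pass the test (0.19, edgeR adjusted p = 0.441). Slc6a11, the GABA transporter of astrocytes, was 5.72-fold higher in the VTA and Abat, which breaks GABA down, differed by 1.32. Slc6a13 had 3.62, 6.23, 23.5, 101 and 38.4 CPM in the VTA and 4.25 to 20.2 in the PFC (log2 difference 1.96, edgeR adjusted p = 0.0555), and differed by 1.01 without VTA library 4. Of 6 genes of GABA synthesis and uptake, 2 were called higher in the VTA and 0 in the PFC, with a median of 1.10.

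Markers of cortical interneurons split. Of 12 markers 7 were called higher in the PFC and 3 in the VTA, with a median of -1.66. Npy, neuropeptide Y, had 3.89, 0.865, 1.0, 1.57 and 0.691 CPM in the VTA against 69.4, 54, 61.6, 63 and 51.7 in the PFC (log2 difference -5.23 ± 0.40 (SE), edgeR adjusted p = 8.65e-07). Vip differed by -3.40, Cck by -3.27, Htr3a by -2.59 and Lhx6, the factor of interneurons from the medial ganglionic eminence, by -3.82. Npy and Lhx6 had their highest VTA value in library 1, without which they differed by -5.83 and -4.41. Sst, somatostatin, whose promoter with its CRE is printed above, had 51.1, 21.2, 56, 108 and 16 CPM in the VTA against 279, 270.5, 218, 218 and 219 in the PFC, a log2 difference of -2.25 ± 0.43 (SE) (edgeR adjusted p = 0.0010). The 3 called higher in the VTA were Calb2 at 3.94, a calcium buffer also found in some dopamine neurons, Adarb2 at 1.23 and Pvalb at 1.14. Pvalb had 64.7, 58.2, 40.2, 59.1 and 142 CPM in the VTA against 36.5, 21.1, 47.5, 38.1 and 22.4 in the PFC, and the groups overlapped. Without VTA library 5 Pvalb differed by 0.72, under 2-fold (edgeR adjusted p = 0.0286). Reln and Nos1 did not pass the test, at -0.45 and 0.47 (edgeR adjusted p = 0.136 and 0.302).

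Neuropeptide precursors were called in both directions. Of 18 tested, 5 were called higher in the VTA and 6 in the PFC, with a median of 0.22. Cort, cortistatin, gave the greatest difference toward the PFC, with 0.12, 0.0346, 0.0641, 0.0454 and 0.0532 CPM in the VTA, 12 reads in all, and 9.97, 11.1, 6.42, 6.64 and 7.06 in the PFC (log2 difference -6.96 ± 0.30 (SE)). Pdyn, prodynorphin, had 22.7, 4.43, 4.13, 3.5 and 0.904 CPM in the VTA against 26.7, 28.6, 30.8, 26.4 and 27.7 in the PFC. Pdyn differed by -1.98, and by -3.12 without VTA library 1. Toward the VTA, Nts, neurotensin, had 22.1, 2.87, 4.19, 2.81 and 1.62 CPM in the VTA and 0.445 to 0.95 in the PFC (log2 difference 3.28), and Gal, galanin, had 12, 0.658, 1.11, 1.75 and 0.399 CPM in the VTA and at most 0.148 in the PFC (5.92). Both were highest in VTA library 1, and without it they differed by 2.06 and 4.25. With PFC library 4, Nts differed by 1.69 (edgeR adjusted p = 0.129). Penk, proenkephalin, had 115, 37.4, 83.6, 94.5 and 40.3 CPM in the VTA against 33.1, 30.2, 48.7, 36.2 and 21.7 in the PFC, with overlap and a difference of 1.13 that turned to -1.08 with PFC library 4 (edgeR adjusted p = 0.345). As Penk was among the striatal genes for which that library was left out, its call is given as a description. Adcyap1, which encodes PACAP, differed by 1.35 with VTA library 1 highest at 122 CPM.

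Opioid receptors also divided. Oprm1, the mu receptor, had 1.98, 4.99, 7.95, 6.17 and 3.93 CPM in the VTA against 1.47, 2.54, 1.21, 1.3 and 1.71 in the PFC, a log2 difference of 1.59 ± 0.34 (SE) with overlapping groups (edgeR adjusted p = 0.00209). Oprk1, the kappa receptor, which dopamine neurons carry, differed by 1.94 toward the VTA and had its highest value in library 2. Oprd1, the delta receptor, had 3.98 to 17.4 CPM in the VTA and 28.2 to 31.9 in the PFC and was higher in the PFC by a log2 of -1.63. With the peptides, 5 of 8 opioid genes were called higher in the VTA and 2 in the PFC, with a median of 1.15. Among the peptides Pnoc, the precursor of nociceptin, differed by 1.16 with overlapping groups.

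Ionotropic glutamate receptor subunits were called in both directions, more of them in the PFC. Gria3 had 64.3, 96.8, 79.7, 74.5 and 58.6 CPM in the VTA against 282, 318, 307, 324 and 300 in the PFC (log2 difference -2.03 ± 0.12 (SE)), Gria2, whose edited subunit blocks calcium entry, differed by -1.65, and Gria1 by -0.71. None of the 9 AMPA and kainate subunits was called higher in the VTA and 4 were called higher in the PFC, with a median of -0.71. Per length, the ratio between subunits shifted: in the VTA the mean was 51.8 ± 8.14 RPKM for Gria1 and 23.3 ± 3.93 for Gria2, and in the PFC 84.7 ± 12.6 and 73 ± 5.0 (SD, n = 5). Among 7 NMDA receptor subunits 3 were called higher in the PFC and 2 in the VTA, with a median of -0.39. The obligatory subunit Grin1 differed by -1.06, Grin2a by -1.94 and Grin2b by -2.15. Grin2d, the subunit with slow decay that midbrain neurons use, had 46, 48.3, 42.5, 39.6 and 36.9 CPM in the VTA against 13.8, 16.2, 12.8, 13.8 and 14 in the PFC and was higher in the VTA by 1.59 ± 0.10 (SE) (edgeR adjusted p = 1.21e-07). Grin3b was also higher in the VTA at 4.31, from 0.93 to 2.05 CPM.

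Inhibitory receptors differed in their subunits. Gabrd, the delta subunit of extrasynaptic GABA-A receptors, had 1.44, 0.935, 1.22, 3.13 and 1.86 CPM in the VTA against 59.9, 52.7, 72, 60.9 and 51.5 in the PFC, a log2 difference of -5.09 ± 0.28 (SE) (edgeR adjusted p = 5.96e-08). Gabrq, the theta subunit, and Gabre, the epsilon subunit, which monoamine neurons are known to express, had 17.1 to 35.6 and 3.34 to 8.74 CPM in the VTA against 0.656 to 1.78 and 0.188 to 0.30 in the PFC. Their log2 differences were 4.62 and 4.59. Gabra5, a subunit of hippocampus and cortex, was higher in the PFC at -1.82, and Gabrg1 higher in the VTA at 1.04. Of 14 GABA-A subunits tested, 3 were called higher in the VTA and 6 in the PFC, with a median of -0.42. Glycine, the fast inhibitory transmitter of the brainstem, gave 4 of 7 tested genes called higher in the VTA and 0 in the PFC, with a median of 1.34. Glra1, a receptor subunit, had 7.46, 29.5, 20.2, 11.5 and 25.9 CPM in the VTA and 0.127 to 0.255 in the PFC (6.60), and Slc6a5, the transporter of glycine neurons, had 1.38, 17.1, 12.4, 3.43 and 17.3 CPM in the VTA against 0.0625 to 0.148 in the PFC (6.49). Both had their lowest VTA value in library 1.

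Serotonin receptors were called in both directions, 3 of 12 higher in the VTA and 4 in the PFC, with a median of -0.08. Htr2c, a receptor coupled to Gq and present on midbrain GABA neurons, had 101, 130.3, 138, 108 and 88.4 CPM in the VTA against 16.1, 24.2, 16.8, 19 and 24.3 in the PFC, a log2 difference of 2.49 ± 0.16 (SE) (edgeR adjusted p = 2.21e-07). Htr2a, the receptor through which classical hallucinogens act, had 3.23 to 7.72 CPM in the VTA and 16.6 to 21.2 in the PFC and was higher in the PFC at -1.64. The Gq-coupled pair was thus called in opposite directions, without overlap for either gene. Htr1d differed by 2.37, and by 0.73 with PFC library 4 (edgeR adjusted p = 0.442).

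Among channels, the potassium channel gene Kcnh3 (chr15:99055292-99073248, plus strand), a member of the ether-a-go-go family of the forebrain, had 1.62, 1.04, 1.35, 1.43 and 1.2 CPM in the VTA against 228, 215, 222, 219 and 192 in the PFC. Its log2 difference was -7.33 ± 0.12 (SE) and its edgeR adjusted p of 1.71e-11 was the smallest of all genes. Kcnv1, a silent subunit, differed by -5.00 and Kcnj4, an inward rectifier, by -4.72. The subunits of the potassium channels that Gi-coupled receptors open did not move as one: Kcnj3 was higher in the PFC at -1.88, Kcnj5 higher in the VTA at 2.54, and Kcnj6, the subunit of dopamine neurons, had 10.8, 35, 22, 12.3 and 16.7 CPM in the VTA against 19.8, 26.9, 22.1, 28.5 and 25.2 in the PFC and did not pass the test (edgeR adjusted p = 0.324). Of 25 potassium channel genes 3 were called higher in the VTA and 8 in the PFC, with a median of -0.54. Hcn4, the slowest pacemaker channel, was higher in the VTA at 2.75. Hcn4 had 11.1 to 17 CPM in the VTA and 1.8 to 2.56 in the PFC. Hcn2 was at the limit of 2-fold at 1.00. Cacna2d2, an auxiliary calcium channel subunit, differed by 2.05, and of 15 calcium and pacemaker channel genes 4 were called in each direction, with a median of -0.71. Sodium channel genes differed least, with 0 of 8 called higher in the VTA and 1, Scn2a1, in the PFC at -1.39, and a median of -0.14.

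Calcium-binding proteins, neurofilaments and axonal genes completed the neuronal lists. Of 9 calcium-binding proteins tested, 2 were called higher in the VTA (Calb2 and Pvalb) and 5 in the PFC, with a median of -1.31. Hpcal4, a neuronal calcium sensor, had 110.3 to 290.2 CPM in the VTA and 1467 to 2010 in the PFC (-2.95). Of 10 neurofilament and axonal genes 4 were called higher in the VTA and 0 in the PFC, with a median of 0.46. Sncg, gamma-synuclein, had 134, 122, 97.7, 49 and 61.6 CPM in the VTA against 2.69, 2.54, 1.74, 1.76 and 3.58 in the PFC (log2 difference 5.23 ± 0.34 (SE)), and Nefh, the heavy neurofilament of large axons, differed by 2.25.

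**Figure D3:**
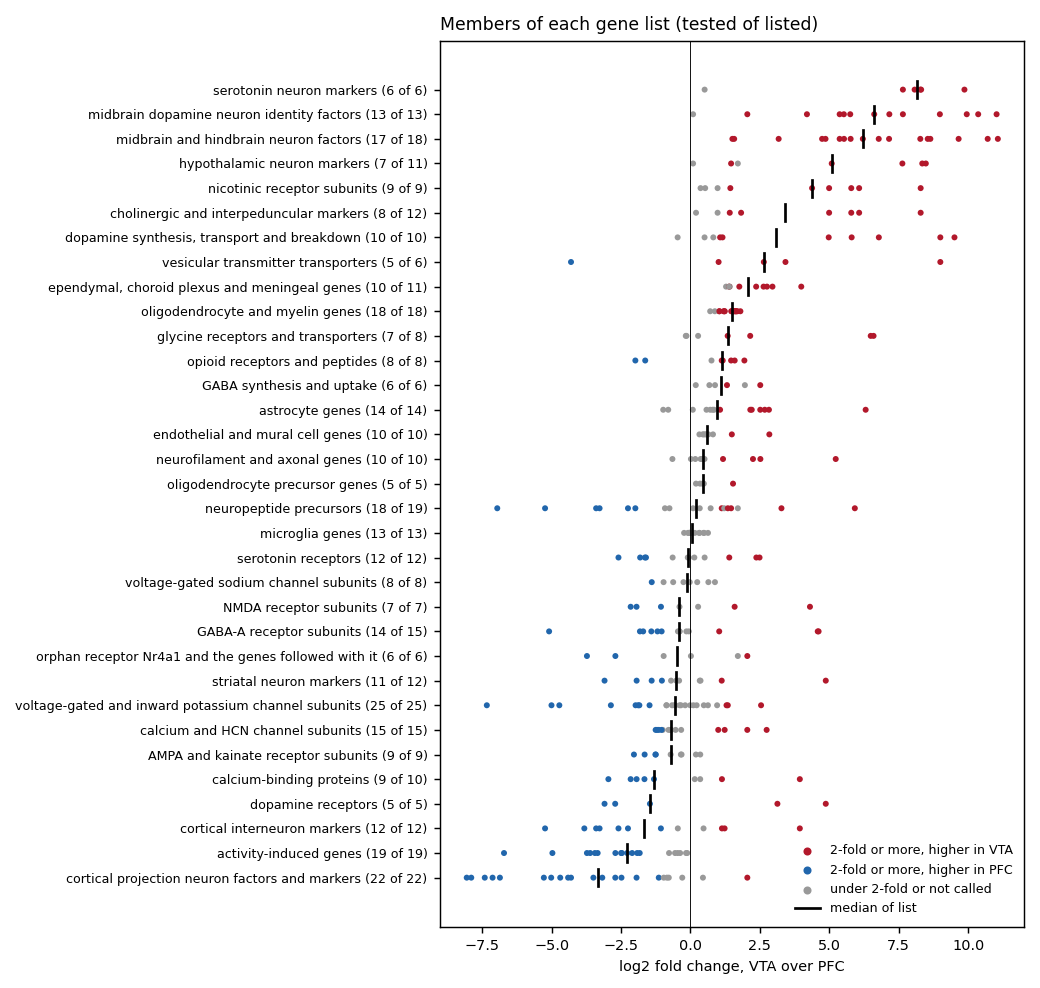
Log2 fold change, VTA over PFC, of each tested member of the gene lists, 1 point a gene, with the list's median as a black line. Lists are ordered by their median, from serotonin neuron markers (8.18) at the top to cortical projection neuron genes (-3.33) at the bottom; red and blue points are genes called at 2-fold or more in the VTA or the PFC and grey points all others.

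Genes induced by neuronal activity were higher in the PFC of these saline mice, which had no drug and had been killed 28 days after the last session. Of 19 such genes 13 were called higher in the PFC and 0 in the VTA, with a median of -2.28. Egr3 (chr14:70477252-70479964, plus strand), a zinc finger factor, had 0.509, 0.208, 0.214, 0.704 and 0.532 CPM in the VTA against 53.2, 38.8, 45.5, 45.5 and 48.8 in the PFC. Its log2 difference was -6.71 ± 0.26 (SE), a 105-fold higher level in the PFC (edgeR adjusted p = 5.49e-09). Egr1 had 9.55 to 31 CPM in the VTA and 147 to 286 in the PFC (-3.61), and Egr4 0.346 to 0.749 and 15.8 to 24.8 (-4.97). Fosb differed by -3.34, Junb by -2.47, Npas4, which responds to calcium entry alone, by -2.28, and Homer1, a scaffold of the postsynapse with a short induced form, by -2.50. Arc, which removes AMPA receptors from synapses, had 26, 29.9, 32.9, 44 and 42.7 CPM in the VTA against 138, 90.2, 259, 192 and 73.6 in the PFC, with a wide spread within the PFC. Fos itself had 6.71, 5.57, 13, 19.6 and 9.09 CPM in the VTA against 12.6, 9.62, 28.8, 17.5 and 11.2 in the PFC and did not pass the test (log2 difference -0.55 ± 0.38 (SE), edgeR adjusted p = 0.237), and nor did Bdnf at -0.37 (edgeR adjusted p = 0.237). Without VTA library 4 Fos differed by -0.89 and without VTA library 1 Bdnf differed by -0.64, and each then passed the test.

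The orphan receptor Nr4a1, which the study followed in cocaine mice, belongs to this group. Nr4a1 (chr15:101097277-101105223, plus strand) had 13.9, 8.83, 13.8, 19.2 and 15 CPM in the VTA against 89.6, 72.6, 130.3, 109 and 60.5 in the PFC. All PFC libraries lay above all VTA libraries, and the log2 difference was -2.70 ± 0.24 (SE), a 6.51-fold higher level in the PFC (edgeR adjusted p = 2.81e-06). Nr4a3 had 3.32, 2.11, 3.36, 2.88 and 2.47 CPM in the VTA against 33.6, 38, 44, 30.2 and 42.3 in the PFC (-3.73 ± 0.16 (SE)). The 3 receptors of the family thus did not run together, with Nr4a2 higher in the VTA and the other two higher in the PFC. Per length, the order in the VTA was Nr4a2 at 14 ± 7.17 RPKM, Nr4a1 at 5.71 ± 1.5 and Nr4a3 at 0.494 ± 0.0944, and in the PFC Nr4a1 at 37.2 ± 11.3, Nr4a3 at 6.57 ± 1.01 and Nr4a2 at 3.39 ± 0.797 (SD, n = 5). Of the genes that the study followed as targets of Nr4a1, Per2, a clock gene, was higher in the PFC by under 2-fold at -0.96 ± 0.16 (SE) (edgeR adjusted p = 4.29e-04). Cbl, a ubiquitin ligase, had 9.91, 45.5, 46.1, 37.4 and 42.4 CPM in the VTA against 28.3, 39.8, 34.3, 39.8 and 36.9 in the PFC and did not pass the test (0.02 ± 0.32 (SE), edgeR adjusted p = 0.967), with VTA library 1 far below the others. Cartpt, the precursor of the CART peptides, had 22, 2.49, 2.59, 9.58 and 0.691 CPM in the VTA against 2.44, 1.95, 2.75, 1.76 and 2.52 in the PFC, with overlap, and did not pass the test at 1.71 ± 0.71 (SE) (edgeR adjusted p = 0.063). Without VTA library 1 Cartpt differed by 0.76. Of these 6 genes, some of which the study chose on this series, 1 was called higher in the VTA and 2 in the PFC, with a median of -0.47.

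Oligodendrocyte genes were higher in the VTA throughout. Of 18 myelin and oligodendrocyte genes 16 were called higher in the VTA and 0 in the PFC, with a median log2 difference of 1.51, and the remaining 2 were higher in the VTA by under 2-fold. Mbp, the basic protein of compact myelin, had 7028, 9398, 11160, 6637 and 13040 CPM in the VTA against 3127, 1891, 2942, 3145 and 4204 in the PFC. Its log2 difference was 1.63 ± 0.23 (SE) and the groups did not overlap (edgeR adjusted p = 1.26e-04). Mobp differed by 1.69 and Mag, which links myelin to the axon, by 1.57. The summed level of the 18 genes ran from 15590 to 31300 CPM in the VTA and from 4516 to 10860 in the PFC. Olig2, a factor of the whole lineage, differed by 0.88, and Pdgfra, the receptor of precursors, had 54 to 96.5 CPM in the VTA and 59.5 to 75.5 in the PFC and did not pass the test (edgeR adjusted p = 0.0614). Of 5 precursor genes 1, Bcas1 at 1.53, which marks cells about to form myelin, was called, and the median was 0.44.

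Of 14 astrocyte genes 11 passed the test toward the VTA and 2, both glutamate transporters, toward the PFC. Agt (chr8:127080434-127093606, minus strand), angiotensinogen, had 314, 275, 316, 266 and 371 CPM in the VTA against 4.41, 2.92, 4.36, 4.03 and 3.79 in the PFC. Agt differed by 6.31 ± 0.15 (SE), a 79.4-fold higher level in the VTA, with a spread within the VTA far below that of the dopamine genes (edgeR adjusted p = 3.84e-10). Gfap, the intermediate filament of astrocytes, had 319.9, 656, 934, 876 and 1317 CPM in the VTA against 123, 73, 104, 106 and 172 in the PFC (2.83), Aqp4, the water channel of the endfeet, differed by 2.21, S100b by 2.16 and Itih3 by 2.68. The glutamate transporters ran the other way: Slc1a2 had 948, 1466, 1439, 1201 and 1618 CPM in the VTA against 2395, 2396, 2796, 3046 and 2521 in the PFC (log2 difference -0.98 ± 0.14 (SE), edgeR adjusted p = 1.24e-04), and Slc1a3 differed by -0.80. Both were under 2-fold with no overlap. At 2-fold or more 7 astrocyte genes were called higher in the VTA and 0 in the PFC, with a median of 0.96.

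Microglia genes gave few differences. None of 13 was called at 2-fold in either direction, 3 passed the test with a smaller difference toward the VTA, and the median was 0.06, beside 0.05 over all genes. The summed level ran from 555.2 to 1093 CPM in the VTA, with library 5 highest, and from 565.9 to 632.2 in the PFC. P2ry12, the ADP receptor of resting microglia, had 12.1, 23.9, 20.5, 14.5 and 31.1 CPM in the VTA against 20.1, 22.6, 25.2, 24.3 and 27.4 in the PFC, and Ctss, cathepsin S, differed by 0.63. Genes of vessels and of the coverings of the brain varied with the VTA library. Acta2, the actin of smooth muscle, had 12.9, 12.6, 51.6, 339.5 and 72.3 CPM in the VTA against 9.78, 12.2, 10.1, 8.25 and 27.9 in the PFC, so its difference of 2.84 was 1.45 without VTA library 4. Dcn, decorin of fibroblasts, had 12.7, 23.1, 57.5, 141 and 51.6 CPM in the VTA against 7.25, 7.38, 4.19, 5.5 and 21.8 in the PFC, and Ttr, a gene of the choroid plexus, 1.47, 0.692, 10.7, 20.7 and 5.82 CPM in the VTA against 0.781, 0.148, 1.11, 1.42 and 1.71 in the PFC. Without VTA library 4 Dcn differed by 1.97 in place of 2.63, Ttr by 2.20 in place of 2.96 and Ptgds by 2.24 in place of 2.96. Prlr, the prolactin receptor, was more even, at 7.38 to 12.4 CPM in the VTA and 0.438 to 0.962 in the PFC. Of 10 endothelial and mural genes 2 were called higher in the VTA, with a median of 0.60, and of 10 ependymal, choroid plexus and meningeal genes tested 7 were, with a median of 2.06, and 0 of either list were called higher in the PFC. Ccdc153, an ependymal gene that did not pass the filter, went the other way, with 9 reads in the VTA and 205 in the PFC, 2.58 CPM in library 5 and 2.25 in library 6 (log2 difference -4.59 with no filter, edgeR adjusted p = 0.00185).

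The VTA libraries differed from each other in genes that mark neighbouring tissue. VTA library 1 held the hypothalamic peptide genes Hcrt, hypocretin, at 422.5 CPM and Pmch, melanin-concentrating hormone, at 430.9 CPM, while the other 4 VTA libraries had at most 0.663 and 2.89. Both peptides are made in the lateral hypothalamus, in front of the VTA. Hcrt did not pass the filter on low counts, and the log2 difference of Pmch, 7.63, was 1.62 without library 1. The summed level of the 11 hypothalamic markers was 963.3 CPM in library 1 and 13.5 to 61.5 in libraries 2 to 5, against 6.03 to 9.25 in the PFC. Foxb1, a factor of the mammillary region, was highest in library 1 too, with 29.7, 3.08, 3.16, 15.4 and 5.1 CPM, but was read in all 5 and differed by 7.73 without it in place of 8.48, and Hdc, which makes histamine in the tuberomammillary nucleus, had 42.4, 1.87, 9.34, 13.6 and 42.3. Sim1 had 5.42, 1.49, 0.599, 2.56 and 4.68 CPM and 1 read in the PFC, a ratio of 505.3 with a 95% counting interval of 90.3 to 19990. Of 7 hypothalamic markers tested, of 11 listed, 5 were called higher in the VTA and 0 in the PFC, with a median of 5.09.

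At the other end, VTA library 1 had no reads from 11 Hox genes that the other VTA libraries held. Hox genes mark the hindbrain and the spinal cord. Hoxb3 had 0, 1.52, 0.855, 3.34 and 2.07 CPM and Hoxb5 0, 0.935, 0.470, 3.45 and 1.99, with 0 reads of both in the PFC. The filter on low counts passed 1 of 12 Hox genes. The summed level of the 12 genes was 0.449 CPM in VTA library 1, 5.67 to 23.7 in libraries 2 to 5 with library 4 highest, and at most 0.0625 in the PFC. Library 1 was likewise lowest for the serotonin genes Slc6a4, Tph2 and Fev, for the transporters Slc17a7 and Slc17a8 and for Slc6a5. Libraries 3 and 4 were highest for the serotonin genes, Pax7, Slc17a8 and Chrna2. Library 4 was lowest for Th, Slc6a3, Slc18a2, Ddc and Drd2 and highest for Acta2 and Dcn. The part of the position of each punch in these differences was not tested.

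**Figure D4:**
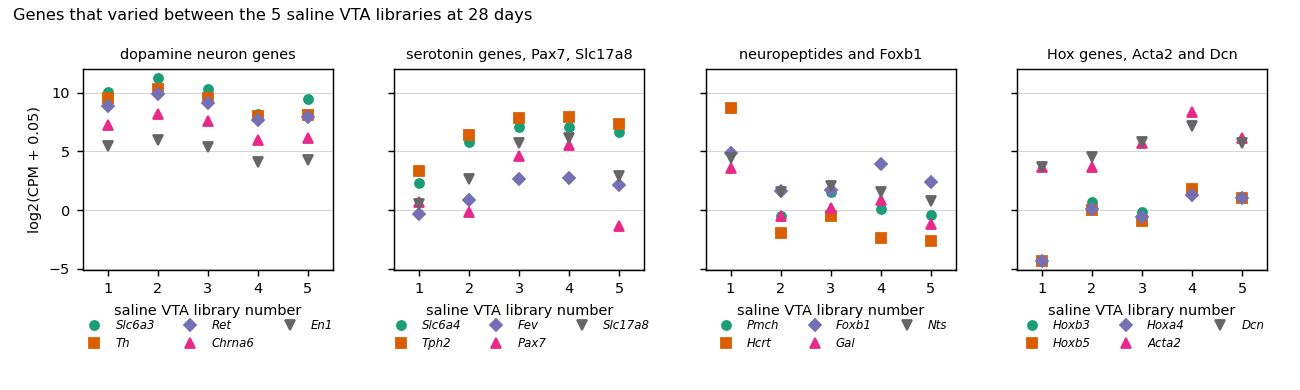
Level, log2(CPM + 0.05), of genes in each of the 5 saline VTA libraries at 28 days; the library numbers carry no order. Slc6a3, Th, Ret, Chrna6 and En1 (left) were highest in library 2 and lowest in library 4, the serotonin genes of the next panel lowest in library 1, Pmch and Hcrt high in library 1 alone at 430.9 and 422.5 CPM, and Hoxb3, Hoxb5 and Hoxa4 at 0 in library 1.

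Some of the same genes varied between the VTA libraries of cocaine mice and of mice at 1 day. In the 6 VTA libraries of cocaine mice at 28 days Slc6a4 had 21.9, 0.259, 80.5, 2.65, 2.88 and 20.3 CPM and Hcrt 53.3, 115.7, 1.02, 0.0501, 0.199 and 24.4. The saline and cocaine VTA groups each held libraries with high hypothalamic genes and libraries with high raphe genes. At 1 day the 6 saline VTA libraries had 0.233, 23.1, 44.5, 0.543, 25.0 and 29.0 RPKM of Slc6a4. None of them was high for Pmch, at 0.886 to 5.54 RPKM, or for Hcrt, at most 0.139. Cartpt, which is also listed with the hypothalamic markers, had 434.8 RPKM in 1 of those 6 libraries and 0.677 to 2.4 in the others.

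Genes of striatal neurons give the levels behind the library left out. In the 5 PFC libraries used, Ppp1r1b (DARPP-32) had 118, 117, 114, 99.4 and 87.5 CPM and Adora2a 4.28, 3.31, 5.7, 3.71 and 3.37. In PFC library 4, Ppp1r1b had 959.8 CPM, Adora2a 155.5, Penk 740.9, Drd1a 121.9 and Drd2 122.0, values between those of the other PFC libraries and the means of the saline NAc, which were 2111, 339, 1599, 272 and 265 CPM. These genes chose the library to leave out, so their differences, tests and counts are given as a description only. Between the 5 PFC libraries and the VTA, Ppp1r1b differed by -1.03 and Adora2a by -0.51 (edgeR adjusted p = 0.067). Of 11 striatal markers tested 2 were called higher in the VTA and 4 in the PFC, with a median of -0.51, and their summed level ran from 288.9 to 455.3 CPM in the VTA and from 345.2 to 421.4 in the PFC. With PFC library 4 included, 9169 genes differed and 3307 by 2-fold or more.

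The comparison was repeated in other mice, the 6 saline VTA and 6 saline PFC libraries at 1 day, for which levels are RPKM and differences are on the log2(RPKM + 0.1) scale, which understates differences of genes with low values. By limma with Benjamini-Hochberg adjustment, 9999 of 14858 genes (67.3%) differed, 41.2% higher in the VTA and 26.1% in the PFC. By 2-fold or more 2377 (16.0%) did, 1359 (9.15%) higher in the VTA and 1018 (6.85%) in the PFC. Of the 1923 genes called higher in the VTA at 28 days, 1427 were tested at 1 day, and 1381 (96.8%) were higher in the VTA at an adjusted p under 0.05, 46 did not pass the test and 0 were called in the other direction. The 1401 genes called higher in the PFC at 28 days gave 1172 tested, 1165 (99.4%) of them higher in the PFC, 7 without a pass and 0 in the other direction. Over 14695 genes the differences at both times had a Pearson r of 0.942, as a description across genes, which are not independent replicates. Called genes at 1 day were higher in the VTA in 61.3% of cases by limma and in 49.8% by edgeR on the whole reads recovered from the RPKM values, a fit that also differed in its filter and normalization.

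**Figure D5:**
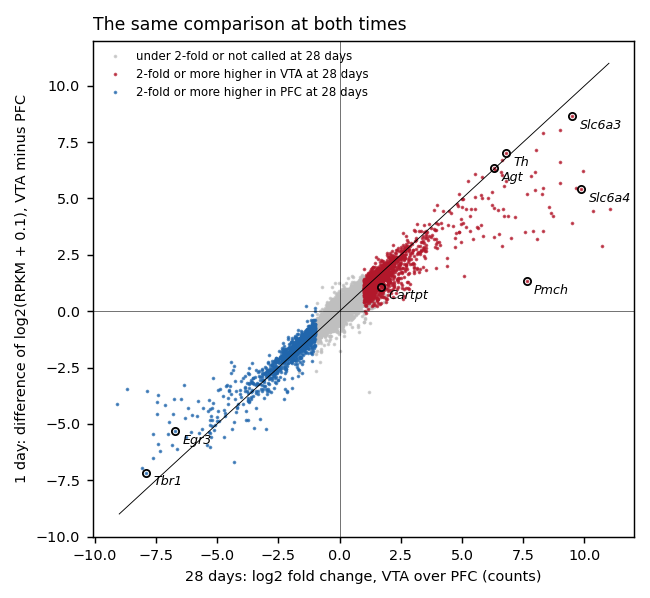
Difference between the VTA and PFC of saline mice at 1 day, on the log2(RPKM + 0.1) scale (6 and 6 libraries), against the log2 fold change at 28 days from counts (5 and 5 libraries), for 14695 genes. The line marks equal values; genes called higher in the VTA at 28 days are red and those higher in the PFC blue, and Pmch lies far below the line, at 7.63 at 28 days and 1.34 at 1 day.

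Genes described above differed at 1 day as follows. Th had 342, 298, 359, 154, 372 and 267 RPKM in the VTA against 2.01, 1.89, 2.38, 2.72, 2.0 and 1.93 in the PFC, a difference of 7.00 on the log2(RPKM + 0.1) scale (limma adjusted p = 2.07e-13). Slc6a3 differed by 8.66, Agt by 6.35, Tbr1 by -7.16, Kcnh3 by -6.20 and Gabrd by -5.07, with no limma adjusted p above 3.76e-12, that of Slc6a3. Nr4a1 had 2.64, 2.64, 2.63, 3.23, 2.45 and 3.89 RPKM in the VTA against 15.9, 21.2, 11.3, 13.9, 18.7 and 17.7 in the PFC, again without overlap, and differed by -2.45 (limma adjusted p = 1.48e-09). Fos, which did not pass at 28 days, differed at 1 day by -0.61 (limma adjusted p = 0.00413). Gad1 differed at 1 day by 0.89 (limma adjusted p = 2.19e-04), Slc17a8 by 0.66 and Chrna2 by 1.99 (limma adjusted p = 0.433 and 0.0564). By edgeR on the recovered reads, Slc17a8 differed by 1.52 and Chrna2 by 3.75 (edgeR adjusted p = 0.0445 and 0.00248), so whether they passed depended on the fit. By list, all 16 oligodendrocyte genes called higher in the VTA at 28 days, all 7 genes of dopamine synthesis and transport and all 16 cortical projection neuron genes called higher in the PFC passed the test in the same direction at 1 day. Of the 13 activity-induced genes called higher in the PFC, 12 did. Fewer did among the genes called higher in the VTA of other lists, with 4 of 6 nicotinic subunits, 2 of 5 neuropeptides and 2 of 5 hypothalamic markers, some of which were not tested at 1 day. Adcyap1 was tested and did not pass, at 0.26 (limma adjusted p = 0.284).

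Cocaine mice at 28 days gave 10851 genes of 16652 that differed between VTA and PFC, 2961 of them by 2-fold or more. Whether the regional difference itself differed between saline and cocaine mice was tested as an interaction over 22 libraries. None of 17428 genes was called by edgeR (0.00%), with 1648 genes at an unadjusted p under 0.05 and a smallest adjusted p of 0.252. DESeq2's Wald test called 30 genes on the same libraries, 25 of them with a higher VTA to PFC ratio in cocaine mice. For the members described above the interaction was thus not detected by edgeR, which does not show that treatment left them equal.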

How the data were processed

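RNA-seq counts per gene were deposited for each saline library at 28 days, and RPKM values at 1 day. The authors aligned reads with STAR 2.4.1d to mm9 with an Ensembl annotation; the counting program and its strand setting are not given in the sources used here. The deposited tables also hold fold changes and p-values of the authors' own comparisons, which were not used, and 30 columns of no sample in the series. The positions listed in the files extend 302 bases beyond each gene, so gene spans were taken from the mm9 annotation.

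Counts of the 28-day VTA and PFC tables were joined by gene identifier and normalized together by TMM. Genes were kept by edgeR's filterByExpr (count minimum 10) and tested with edgeR 4.0.16's quasi-likelihood test, with Benjamini-Hochberg adjustment (R 4.3.3). At 1 day log2(RPKM + 0.1) was tested with limma 3.58.1 for genes whose mean over the libraries reached 0.5 RPKM. The 1-day RPKM values were whole multiples of 1 read for 23806 of 23806 VTA and 23353 of 23353 PFC genes (tolerance 0.0001), which gave 1-day libraries of 23007226 to 29614689 reads and the gene lengths used for RPKM at 28 days. Intervals for ratios to 1 to 3 reads are exact conditional binomial intervals at 95% and, like the floor of 3 reads, cover counting error only.

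The 182 genes named are the members of 35 gene lists that bear on the results, the 12 with the greatest difference in each direction with a mean of 10 CPM or more in the higher region and no overlap, the 5 most abundant called in each direction, and genes the study followed. Some genes that this rule names are not reported here. The regions, members and lists were chosen with earlier results of these data known. Alternatives were DESeq2 1.42.0, its size factors, total-count scaling, no filter, another pseudocount, the replicate block, leaving out each library, and adding PFC library 4. Tested on simulated data, the fits recovered 82.4% of 2-fold changes at 28 days (200 changed of 16520 genes), 91.4% at 1 day (14637 genes) and 65.8% of 2-fold interactions (17303 genes). Promoters came from a RefSeq table on GRCm38.p6, and no coordinates were converted between builds. Figures were drawn with matplotlib 3.10.9.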

Additional observations from a re-analysis of the deposited data

Results flagged for a closer look

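Of 308 groups of 5 libraries of named genes with a mean of at least 1 CPM, 25 had a library whose gap to the nearest other exceeded Dixon's 95% limit, which chance passes in about 1 group in 20. VTA library 1 accounted for 8 of them, VTA library 5 for 6, PFC library 6 for 5, PFC library 2 for 3, VTA library 4 for 2 and PFC library 5 for 1.

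VTA library 1 was high for the peptide genes Pmch (430.9 CPM, others 0.658 to 2.89), Nts (22.1, others 1.62 to 4.19), Gal (12.0, others 0.399 to 1.75), Pdyn (22.7, others 0.904 to 4.43) and Npy (3.89, others 0.691 to 1.57) and for Nrgn (72.8, others 18.9 to 33.9). It was low for Reln, a secreted protein of interneurons, at 25.0 CPM with the others at 65.1 to 80.2, and for Cbl at 9.91 CPM with the others at 37.4 to 46.1.

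VTA library 5 was high for Six3 (22.0 CPM, others 0.930 to 5.5), Pvalb (141.5, others 40.2 to 64.7), Ppp1r1b (81.1, others 43.9 to 47.8), Hcn2 (326.2, others 204.2 to 233.6), Olig2 (58.2, others 38.8 to 41.5) and Ctss (144.6, others 68.8 to 90.6). VTA library 4 was high for Acta2 (339.5 CPM, others 12.6 to 72.3) and Ctgf (94.6, others 4.22 to 27.8).

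PFC library 6 was high for 3 genes of vessels or meninges, Acta2 (27.9 CPM, others 8.25 to 12.2), Dcn (21.8, others 4.19 to 7.38) and Slc6a13 (20.2, others 4.25 to 8.41), and for Neurod6 (118.8, others 100.5 to 105.0) and Nkx2-2 (5.17, others 3.43 to 3.81). PFC library 2 was high for Drd1a (22.9 CPM, others 18.8 to 19.4) and low for Kcnv1 (61.5, others 83.8 to 90.4) and Itih3 (23.8, others 27.1 to 27.8), and PFC library 5 was low for Drd2 (2.92, others 3.87 to 4.06). The difference of each of these genes from the VTA kept its direction without the library named.

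PFC library 4, which was left out of the main comparison and added only as an alternative, lay above the 5 libraries used for 5 striatal genes. It had 155.5 CPM of Adora2a, an adenosine receptor (others 3.29 to 5.67), 122.0 of Drd2 (2.89 to 3.98), 121.9 of Drd1a (18.6 to 22.9), 959.8 of Ppp1r1b (85.5 to 116.7) and 740.9 of Penk (21.2 to 48.4), with levels scaled over all libraries of the 3 regions.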

How the results depend on the processing

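Genes that differed at 28 days numbered 8871, and 7924 to 10195 when each library was left out, 3324 and 3163 to 3623 at 2-fold. At 1 day they numbered 9999 and 9498 to 9938, 2377 and 2324 to 2443 at 2-fold. A pseudocount of 1 gave 10013 genes at 1 day (1591 at 2-fold) and no filter gave 11545 (3079). By edgeR on the recovered reads 10572 genes differed (2918 at 2-fold), so the 1-day count at 2-fold moved with the processing. At 28 days DESeq2, its size factors, total counts, no filter and PFC library 4 gave 8870 to 9352 genes, and 3307 to 4187 at 2-fold. The region-by-treatment test gave 0 genes by edgeR and 30 by DESeq2, and the cause was not tested. Same-numbered VTA and PFC deviations correlated at -0.115 to 0.442 at 28 days and -0.229 to 0.244 at 1 day. The other pairs ran from -0.476 to 0.354 at 28 days and -0.351 to 0.335 at 1 day. VTA deviations also varied with genes of neighbouring tissue, so these values cannot decide whether the column numbers pair the libraries. With the replicate block 7667 genes differed at 28 days (3154 at 2-fold) and 9524 at 1 day (2380), and Htr1a turned to -0.0050 and Cbl to -0.17. Of 182 named genes, directions also turned for Sox6 without VTA library 2 (-0.044, with 0.25 the highest, without library 1), Gad1 without VTA library 5 (-0.064, with 0.30 the highest, without library 1) and Cbl, which ran from -0.11 to 0.26 with each library left out, none of which passed the test in either form. With PFC library 4 included Chat turned to -1.40, Penk to -1.08 and Cbl to -0.023. Slc17a8 lost its pass without VTA library 4 (1.92), and Slc17a8 (0.91) and Chrna2 (0.77) under the block. With 1 PFC library left out the fitted difference rose to 12.12 for Pax7 (library 5), 11.79 for Lmx1a (library 6), 10.60 for En1 (library 3) and 9.59 for Foxa1 (library 5), genes with 1 to 6 PFC reads. Genes below a few reads a library cannot be ranked by fold at this depth.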

Other observations

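Long intergenic noncoding RNAs were called in a larger share than coding genes, and the difference between the shares was not tested. Of 501 long intergenic noncoding RNAs tested, 83 were called higher in the VTA and 66 in the PFC, together 29.7%, beside 20.2% of 14995 protein-coding genes (1776 and 1255). The largest differences among them included C130021I20Rik, a neighbour of Lmx1b on chromosome 2, at 8.98. At 1 day it differed by 6.61 on the log2(RPKM + 0.1) scale. Of 884 pseudogenes 14 were called higher in the VTA and 26 in the PFC, together 4.52%. Reads of pseudogenes can come from their parent genes, and without the strand of counting an antisense gene cannot be told from its partner.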
